A study of Homo sapiens with 4 samples.

Results

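The zinc finger genes of human chromosome 19 were taken as every entry of the deposited table that lies on chromosome 19, carries a protein-coding transcript and names a symbol made of ZNF, a number and at most 1 further letter. The rule found 250 symbols in 211 entries, out of 64873 entries of which 62778 name a gene. It used names, positions and transcript types, and no measured difference between the groups. The 1 symbol that stood in several entries was taken from that with the highest mean count over the 4 libraries. An entry is a locus of the assembly, and 183 of the 211 hold 1 such symbol while 28 hold between 2 and 5, so that 67 symbols share an entry and have no value of their own. Of the 250 symbols, 3 end in P, the mark of a pseudogene, and stand in such shared entries.

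Most of these genes encode C2H2 zinc finger proteins, in which each finger is a short loop held around a zinc ion by cysteine and histidine residues and reads a few bases of DNA. Many carry a KRAB domain at their start, which recruits the co-repressor TRIM28 and through it the histone methyltransferase SETDB1 and HP1 proteins, and a large share of the KRAB proteins studied bind transposable elements. The family grew by tandem duplication, so that its genes lie in clusters along chromosome 19 and neighbours can be close in sequence.

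RNA was sequenced from 4 libraries of K562-U2AF1_S34F, which are K562 erythroleukemia cells, an established human line, made to overexpress the S34F form of the splicing factor U2AF1. Both groups carry this form, so that no library shows the genes without it. The DMSO group (n = 2) was given the solvent and the SF1-8 group (n = 2) was given SF1-8, a compound directed at the UHM domain of U2AF1, at 30 uM for 48 h, and the comparison asks how the treated cells differed from the solvent controls. The labels do not say that the 2 libraries of a group came from separate cultures, so that p-values measure the spread between these libraries, which may be technical. U2AF1, the overexpressed gene, stood at 11.4 and 11.5 FPKM with DMSO and at 11.9 and 12 FPKM with SF1-8, which does not tell the mutant from the normal form.

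Total counts were 45522905 and 64387710 in the DMSO libraries and 67554610 and 64305922 in the SF1-8 libraries. The zinc finger entries held between 0.385% and 0.427% of them. The 15 K562 markers stood in 12 entries, since HBG1, HBG2 and HBE1 share 1 and HBA1 and HBA2 another, and 6 of these name 1 gene alone. All 12 entries reached 1 FPKM, although the labels name the tissue as bone marrow, and with each entry counted once they summed to 413 and 411 FPKM with DMSO and to 377 and 401 FPKM with SF1-8. The sum over 8 fibroblast or stromal markers was 13.3 and 7.94 FPKM with DMSO and 5.94 and 4.26 FPKM with SF1-8. Without PDGFRA, whose entry also names FIP1L1, the sum was 9.93 and 4.72 FPKM with DMSO and 2.46 and 0.594 FPKM with SF1-8. Of these 8 markers, 6 were lower and 2 higher by the fit, the latter being THY1 and the PDGFRA entry (log2 fold change 0.15 each). At an unadjusted p under 0.05, 5 of the 8 were lower, beside 2.54% of all entries, and none at an adjusted p under 0.05 (edgeR quasi-likelihood, Benjamini-Hochberg). Mean levels were under 1 FPKM for 5 of the 8. LUM had counts in the DMSO libraries only, at 0.17 and 0.087 FPKM. The sums over T cell markers lay between 5.37 and 6.44 FPKM with DMSO and between 4.35 and 4.53 FPKM with SF1-8. Most of this was CD3D, at 5.14 and 4.68 FPKM with DMSO and at 3.91 and 3.82 FPKM with SF1-8, and the other T cell markers stood under 1 FPKM. The sums over B cell markers were at most 0.383 FPKM with DMSO and at most 0.511 FPKM with SF1-8, and those over monocyte markers ran from 4.23 to 5.84 FPKM over the 4 libraries. Most of the monocyte sum was LYZ, at 5.80 and 4.08 FPKM with DMSO and at 4.40 and 4.23 FPKM with SF1-8. The other monocyte markers stood under 1 FPKM. In RNA from a whole culture, fewer cells of a type and less RNA per cell cannot be told apart, and the part of these markers in the results below was not tested.

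To show the unit that these proteins repeat, the coding sequence of the third finger with its linker is printed 5′ to 3′ on the coding strand for the 1 gene with the smallest p (ZNF260), its like neighbour in the same cluster (ZNF146), the gene with the highest level (ZNF121) and a long KRAB protein known to silence retrotransposons (ZNF91). Capitals mark the codons of the cysteines and histidines that hold the zinc.
ZNF260: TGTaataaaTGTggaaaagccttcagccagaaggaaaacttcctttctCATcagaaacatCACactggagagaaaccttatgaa
ZNF146: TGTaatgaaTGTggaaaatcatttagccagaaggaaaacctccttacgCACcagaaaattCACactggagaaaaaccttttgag
ZNF121: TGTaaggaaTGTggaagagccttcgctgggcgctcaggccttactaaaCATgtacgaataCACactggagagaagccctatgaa
ZNF91: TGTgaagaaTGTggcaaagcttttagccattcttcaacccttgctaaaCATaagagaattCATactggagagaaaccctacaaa

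On GRCh38 these 84 bases lie on chromosome 19 at chr19:36514903-36514986 (minus strand, exon 2 of 2) for ZNF260, at chr19:36236660-36236743 (plus strand, exon 3 of 3) for ZNF146, at chr19:9566426-9566509 (minus strand, exon 6 of 6) for ZNF121 and at chr19:23362010-23362093 (minus strand, exon 4 of 4) for ZNF91. Exons are those of the GENCODE version 29 transcript used. The ZNF260 and ZNF146 fingers had 71 of 84 bases in common (84.5%). ZNF260 shared 61.9% with ZNF121 and 66.7% with ZNF91. These fingers thus differ at several bases in every pair, although whole stretches between other members do not. By 75-base windows of the coding sequence, 170 of 246 symbols shared none with another member, 76 shared at least 1 and 16 shared over 10% of their windows. ZNF585A and ZNF585B shared 32.2% of their windows, with a longest identical run of 305 bases. A stretch of ZNF585A that stands unchanged in ZNF585B is printed, and a read lying wholly within it could come from either gene.
ZNF585A: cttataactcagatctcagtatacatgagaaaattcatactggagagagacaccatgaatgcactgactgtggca

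This window lies at chr19:37153154-37153228 of GRCh38 on the minus strand, in exon 5 of 5. ZNF417 and ZNF587 shared 55.5% of their windows. Values of such genes are uncertain where reads could be given to either copy.

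Zinc finger entries of chromosome 19 were present at low levels in these cells. Their median level was 1.18 FPKM over the 4 libraries, and 111 of 211 (52.6%) reached 1 FPKM, 16 reached 5 FPKM and 4 reached 10 FPKM. Another 28 stood under 0.1 FPKM, and 6 had no count in any library, namely ZNF729, ZNF98, ZNF99, ZNF536, ZNF667 and ZNF835. The 256 entries of ZNF genes on other chromosomes had a median of 2.10 FPKM and 22.7% of them reached 5 FPKM, against 7.58% of the chromosome 19 entries. The other 1053 protein-coding entries of chromosome 19 had nearly the same median, 1.18 FPKM, but a wider range, with 32.7% at 5 FPKM or more. These are descriptions of levels per length, with no test. The summed level of the 211 entries was 419 and 388 FPKM with DMSO and 401 and 411 FPKM with SF1-8, so that the groups overlapped.

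Levels were also set beside the form of the protein, with no test. Of 246 translated proteins, 210 matched the KRAB region of ZNF91 at an E-value under 1e-05, and 36 are counted as without a match. Where the match lay in the protein was not checked. ZNF180 (E-value 1.7e-05) and ZNF446 (1.2e-05) fell just short of the limit and are among the 36. The number of fingers had a median of 12 and reached 36 in ZNF208. Among entries with 1 symbol, the 152 with the KRAB match had a median of 0.829 FPKM and 46.7% reached 1 FPKM, while the 30 without it had a median of 2.04 FPKM and 66.7% reached 1 FPKM. The number of fingers and the level had a Spearman correlation of -0.06 over 182 entries, all measured in the same libraries. The 268 RefSeq promoters (GRCh38.p14) of 216 of these symbols, from 250 bases before to 50 after the start, had a median GC content of 60.0% and a median of 20 CG pairs, against 58.7% and 14 over all promoters of the table. The letters GGGCGG were found on either strand in 64.9% of them and in 45.0% of all promoters.

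**Figure D1:**
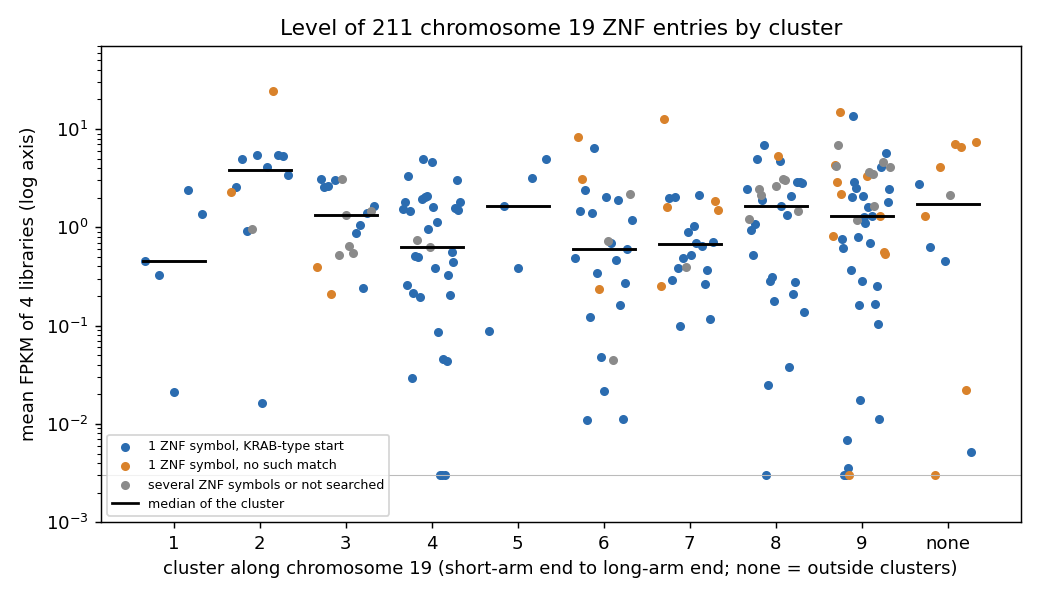
Mean FPKM of each of the 211 entries over the 4 libraries (log axis) in the 9 clusters ordered along chromosome 19 and for the 12 entries outside them, coloured by the KRAB match, with a black bar at each median and entries under 0.003 FPKM drawn on the grey line. Every cluster holds entries on both sides of 1 FPKM, and ZNF121 in cluster 2 is the highest point.

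The most abundant entry was ZNF121, a C2H2 protein of 9 fingers with no KRAB match. It stood at 24.7 and 23.1 FPKM with DMSO and at 24.1 and 25.1 FPKM with SF1-8. ZNF787, with 7 fingers, stood at 14.5 and 14.5 FPKM with DMSO and at 14.8 and 15.1 FPKM with SF1-8. ZNF460 stood at 14.4 and 13.6 FPKM with DMSO and at 13.1 and 13.3 FPKM with SF1-8. ZNF121 lay above all others in every library, and the ranges of ZNF787 and ZNF460 did not meet, while the range of ZNF428 crossed both. ZNF428, which holds 1 finger, had 13.8 and 15.9 FPKM with DMSO and 15.5 and 5.40 FPKM with SF1-8. ZNF146 had 12.2 and 2.97 FPKM with DMSO and 6.08 and 12 FPKM with SF1-8, so that its libraries differed more within a group than between the groups.

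ZNF473, which takes part in the 3′ end processing of histone mRNAs with the U7 particle, had 8.03 and 7.16 FPKM with DMSO and 7.58 and 6.62 FPKM with SF1-8. ZNF574 had 7.21 and 7.66 FPKM with DMSO and 6.93 and 6.66 FPKM with SF1-8. ZNF480, a KRAB protein, had 7.13 and 6.09 FPKM with DMSO and 6.87 and 7.61 FPKM with SF1-8. The neighbours in this order, from ZNF146 down, had overlapping ranges. Of the 8 entries with the highest level, 6 had no KRAB match and 2 had one. None of the 8 passed the test, with log2 fold changes from -0.48 (ZNF428) to 0.30 (ZNF146). The value of ZNF428 rested on the library SF1-8 2, and without it the log2 fold change was 0.10. That of ZNF146 was -0.36 without DMSO 2 and -0.25 without SF1-8 2.

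**Figure D2:**
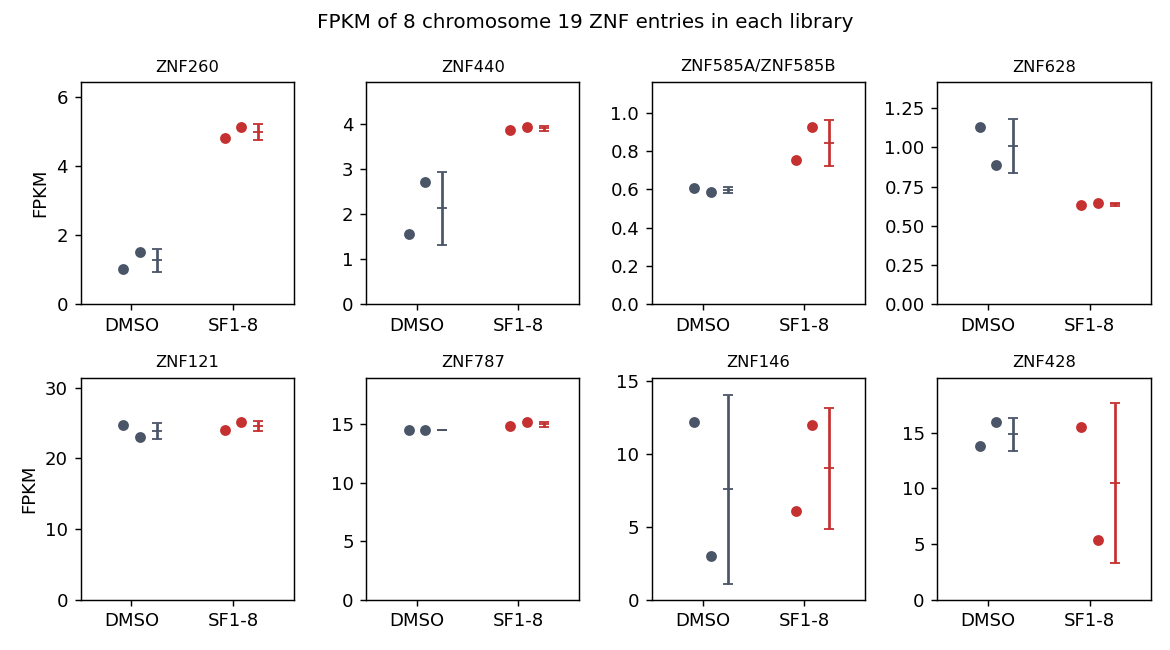
FPKM per library for the 8 entries named in the panels, with DMSO and SF1-8 libraries as separate points, each group's mean with its SD beside them (n = 2) and a linear axis from 0 in each panel. The groups are apart in the 4 upper panels, which hold the entries with the smallest p, and also in ZNF787. ZNF146 and ZNF428 each have 1 library far from its replicate.

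None of the 197 entries that passed the filter on low counts had an adjusted p under 0.05 for SF1-8 against DMSO (edgeR quasi-likelihood, Benjamini-Hochberg over all 26167 entries tested). Of all entries, 0.042% were called, 0.0229% lower and 0.0191% higher. At an unadjusted p under 0.05 there were 4 zinc finger entries, 1 lower and 3 higher, or 2.03% beside 4.33% of all entries, of which 2.54% were lower and 1.78% higher. DESeq2 called 1 of them at an adjusted p under 0.05 (ZNF260), beside 0.623% of all entries, and 5 at an unadjusted p under 0.05, beside 4.43% of all entries. The other 14 entries were too low to test, with mean levels of at most 0.0435 FPKM. With 2 libraries a group, an exact permutation test of a single entry cannot go below a two-sided p of 0.333.

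The fitted changes of the tested entries were small. Of 197, 167 had a log2 fold change within 0.5 of 0. The median absolute value was 0.16, beside 0.22 over all entries and 0.12 over protein-coding ones. Median differences between replicates of the zinc finger entries were 0.22 with DMSO and 0.21 with SF1-8 on the same scale. For 138 (70.1%) the estimate with 2 standard errors on each side lay within a 2-fold change, beside 51.2% of all entries and 76.6% of protein-coding ones. A fitted change of at least 2-fold was found for 8 entries (4.06%), beside 11.6% of all entries and 5.13% of protein-coding ones. For 7 of these 8 the mean level was under 1 FPKM. In 33 entries the change exceeded both differences between replicates, but the share over all entries was not computed, so that this count has no background. By level, the median log2 fold change was 0.04 under 1 FPKM (86 entries), 0.06 from 1 to 5 FPKM (95) and -0.01 at 5 FPKM and over (16), beside -0.08, 0.01 and 0.04 over protein-coding entries of the same levels.

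Of the 197 entries, 113 had a higher fitted level with SF1-8 (57.4%) and 84 a lower one. Over all entries 48.4% were higher, and over protein-coding entries, as these all are, 55.7%. The median log2 fold change was 0.05, against -0.01 over all entries, 0.02 over protein-coding entries, 0.0036 over the other protein-coding entries of chromosome 19 and -0.00091 over the ZNF entries of other chromosomes. When counts were scaled by their total alone, 98 were higher and 99 lower (49.7% higher, beside 40.3% of all entries), and after quantile normalization 133 were higher and 64 lower (67.5%, beside 51.8%). TMM and total count scaling shift all entries of a library together. Quantile normalization changes values by rank and was done on log2(FPKM + 1) with limma, so that more than the scaling differs. The median of the zinc finger entries less that of all entries was 0.057 by TMM and 0.056 by total count. In limma it was 0.037 after quantile normalization and 0.022 without it. The SF1-8 libraries both lay above the DMSO libraries in 43 entries (21.8%), beside 17.3% of all entries and 21.4% of protein-coding ones. Both lay below in 18 (9.14%), beside 18.1% of all entries and 14.5% of protein-coding ones. By total count scaling these counts were 25 and 27, beside 12.1% and 21.4% of all entries, and by the deposited FPKM they were 32 (16.2%) and 26 (13.2%), beside 14.2% and 20.0% of all entries.

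**Figure D3:**
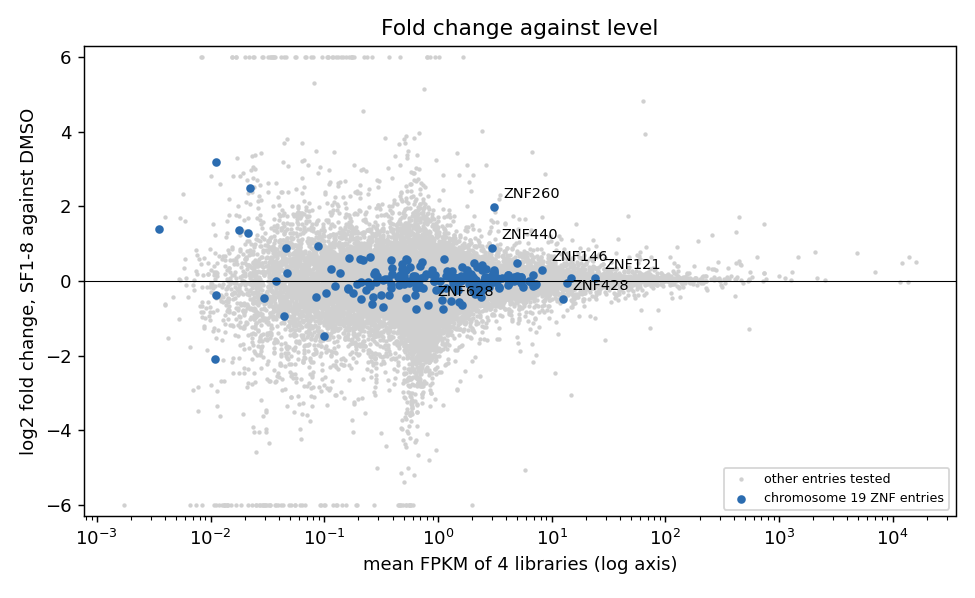
Log2 fold change of SF1-8 against DMSO (edgeR, TMM) against mean FPKM (log axis) for the 197 tested zinc finger entries in blue and the other tested entries in grey, those beyond -6 or 6 being drawn there. Above 1 FPKM the blue points lie within a 2-fold change except ZNF260, and the entries beyond 2-fold otherwise have low levels.

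ZNF260, known from the heart as a partner of GATA4, was the entry that stood apart. Its entry lies on the minus strand of chromosome 19 from 36510687 to 36528271 (GRCh38), names this gene alone and encodes 13 fingers in 412 residues with no KRAB match and no 75-base window shared with another member. Its level was 1.02 and 1.5 FPKM with DMSO and 4.82 and 5.15 FPKM with SF1-8, from counts of 330, 679, 2249 and 2317. The SF1-8 values did not meet the DMSO values, with group means of 1.26 ± 0.34 and 4.98 ± 0.229 FPKM (SD, n = 2). The log2 fold change was 1.99 (standard error 0.231), and the adjusted p was 0.215 (edgeR quasi-likelihood, Benjamini-Hochberg). The entry passed the threshold with DESeq2 (log2 fold change 2.00, adjusted p = 3.40e-12, Benjamini-Hochberg) and with no filter on low counts in edgeR (2.00, adjusted p = 0.0315). Over all settings tried, the log2 fold change ran from 1.41 to 2.36 and the adjusted p reached 0.544, with the upper end of the change when the library DMSO 2 was left out.

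None of the genes beside ZNF260 passed the test. Within 600 kb, 47 other entries were tested, 14 of them zinc finger entries, of which 7 were lower and 7 higher. An unadjusted p under 0.05 was found for 2 of the 47, beside 4.33% of all entries. ZNF566, which lies on one side, had 1.45 and 1.73 FPKM with DMSO and 1.23 and 1.41 FPKM with SF1-8. ZNF529, on the other side, had 3.35 and 2.19 FPKM with DMSO and 3.14 and 0.894 FPKM with SF1-8. ZNF850, with 29 fingers, had 6.46 and 6.41 FPKM with DMSO and 6.16 and 6.46 FPKM with SF1-8. By FPKM the groups overlapped in ZNF529 and ZNF850 but not in ZNF566, whose SF1-8 values were both lower, and with counts scaled by TMM they overlapped in all 3.

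The other entries with an unadjusted p under 0.05 all had an adjusted p of 0.970 (edgeR quasi-likelihood, Benjamini-Hochberg). The entry of ZNF585A and ZNF585B, whose shared window is printed above, had 0.606 and 0.587 FPKM with DMSO and 0.756 and 0.928 FPKM with SF1-8 (log2 fold change 0.52, standard error 0.148). ZNF440, a KRAB protein, had 1.55 and 2.70 FPKM with DMSO and 3.86 and 3.93 FPKM with SF1-8 (0.89, standard error 0.287), and its value was 1.40 without DMSO 2 and 0.52 without DMSO 1. ZNF628 had 1.13 and 0.887 FPKM with DMSO and 0.629 and 0.644 FPKM with SF1-8 (-0.63, standard error 0.213). The groups did not overlap in these 3 entries, which were picked by their p in the same libraries, so that this adds no support. Groups did not overlap in 31% of the tested zinc finger entries and in 35.5% of all entries. Among the next smallest p-values, the log2 fold changes were -0.44 for ZNF439 and ZNF69, 0.25 for ZNF700 and ZNF763, 0.28 for ZNF577 and ZNF649, 0.21 for the entry of ZNF888, ZNF321P, ZNF816 and ZNF702P, -0.51 for ZNF615, -0.75 for ZNF433 and ZNF878, and -0.63 for ZNF506. ZNF793 had 3.19, from counts of 0 and 4 with DMSO and of 16 and 26 with SF1-8, so that this value is imprecise.

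Where the level was at least 1 FPKM, large fitted changes often came from 1 library. In 13 such entries the replicates of a group differed by more than 2-fold. ZNF600, a KRAB protein of 18 fingers, had 2.14 and 1.87 FPKM with DMSO and 0.518 and 2.02 FPKM with SF1-8. Its log2 fold change was -0.64, and 0.04 without the library SF1-8 1. ZNF101 had 2.66 and 1.06 FPKM with DMSO and 1.26 and 1.18 FPKM with SF1-8, with a log2 fold change of -0.56 that was 0.20 without DMSO 1. ZNF530 had 1.71 and 1.08 FPKM with DMSO and 0.479 and 1.13 FPKM with SF1-8 (-0.75), and ZNF329 had 1.68 and 1.44 FPKM with DMSO and 0.555 and 1.54 FPKM with SF1-8 (-0.55). In ZNF600, ZNF530 and ZNF329 alike, the low library was SF1-8 1. On the higher side, ZNF257 had 1.05 and 0.784 FPKM with DMSO and 1.71 and 1.01 FPKM with SF1-8 (0.60), ZNF708 had 0.49 and ZNF317 0.49.

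Members with a known role were also followed. ZNF91, which represses SVA and L1 retrotransposons, stood at 0.664 and 0.212 FPKM with DMSO and at 0.662 and 0.253 FPKM with SF1-8, and ZNF93, which acts on L1, at 1.48 and 1.55 FPKM and at 1.43 and 1.38 FPKM. ZNF274, which marks the 3′ ends of zinc finger genes with SETDB1, had 4.21 and 3.97 FPKM with DMSO and 4.01 and 4.32 FPKM with SF1-8. None of these passed the test, with log2 fold changes of 0.12, -0.08 and 0.05. The entry of ZNF586, ZNF587B and ZNF587 had 4.37 and 3.09 FPKM with DMSO and 3.52 and 2.83 FPKM with SF1-8. The entry of ZNF552, ZNF814 and ZNF417 had 1.56 and 1.67 FPKM with DMSO and 1.8 and 1.57 FPKM with SF1-8. ZNF417 and ZNF587, which act on HERV-K elements, thus share entries with other genes and have no values of their own.

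ZNF808, a KRAB protein that silences MER11 elements, shares an entry with ZNF701. It stood at 2.39 and 2.34 FPKM with DMSO and at 4.06 and 1.76 FPKM with SF1-8, so that the DMSO values lay between the SF1-8 values. ZNF224, a KRAB repressor, had 1.00 and 0.600 FPKM with DMSO and 0.750 and 1.20 FPKM with SF1-8. The imprinted gene ZNF331 had 0.166 and 0.0904 FPKM with DMSO and 0.142 and 0.148 FPKM with SF1-8. ZNF154, whose promoter is methylated in many tumours, had 0.754 and 0.682 FPKM with DMSO and 0.703 and 0.614 FPKM with SF1-8. ZNF568 and ZNF382 stood at no more than 0.0362 FPKM in any library. None of these genes passed the test.

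By a gap of at most 1 Mb between neighbouring starts, the entries fell into 9 clusters of at least 3 entries, with 12 entries outside. The largest, cluster 9 from 55.5 to 58.5 Mb, held 47 entries, and cluster 4, on the centromeric side from 19.7 to 24.1 Mb, held 35. The median level was highest in cluster 2 (8.5 to 9.8 Mb, 12 entries, 3.79 FPKM), which holds ZNF121. It was lowest in cluster 1 (2.8 to 2.9 Mb, 5 entries, 0.457 FPKM), where ZNF57 led and ZNF556 was lowest. In the other clusters it was 1.35 FPKM for cluster 3 (11.5 to 12.6 Mb), 0.629 for cluster 4, 1.63 for cluster 5 (34.7 to 35.0 Mb), 0.609 for cluster 6 (36.2 to 37.8 Mb), 0.669 for cluster 7 (43.5 to 45.1 Mb), 1.64 for cluster 8 (51.6 to 53.6 Mb) and 1.30 for cluster 9. The share of entries at 1 FPKM or more ran from 36.4% in cluster 7 to 75% in cluster 2.

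Every cluster held entries at very different levels. In cluster 4, ZNF714 stood at 4.79 and 5.00 FPKM with DMSO and at 4.40 and 5.49 FPKM with SF1-8, while ZNF729 had no count. In cluster 5, ZNF792 stood at 4.76 and 4.85 FPKM with DMSO and at 5.30 and 5.02 FPKM with SF1-8, and ZNF302 was lowest. In cluster 9, ZNF787 was highest and ZNF667 had no count. The lowest entries of the other clusters were ZNF560, ZNF491, ZNF382, ZNF155 and ZNF610, and their highest were ZNF121, the ZNF700 and ZNF763 entry, ZNF146, ZNF428 and ZNF480, in the order of clusters 2, 3, 6, 7 and 8.

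The cluster medians of the change were small. The median log2 fold change per cluster ran from -0.03 in cluster 1 to 0.13 in cluster 5, and no test was made between clusters. The summed level of cluster 9 was 113 and 105 FPKM with DMSO and 106 and 105 FPKM with SF1-8. That of cluster 7 was 32.7 and 33.8 FPKM with DMSO and 33.2 and 24.1 FPKM with SF1-8, where ZNF428 was the entry that was low in SF1-8 2. Cluster 6, which holds ZNF260, summed to 37.4 and 27.2 FPKM with DMSO and to 34.6 and 38.9 FPKM with SF1-8, with ZNF146 low in DMSO 2. Cluster 6 also held 4 of the 8 entries past a 2-fold change, ZNF260, ZNF382, ZNF568 and ZNF793. They made up 16% of its entries, beside 11.6% of all entries and 5.13% of protein-coding ones. Under 1 FPKM these shares were 22.3% of all tested entries and 15.9% of protein-coding ones. All but ZNF260 had mean levels near 0, at 0.011, 0.022 and 0.011 FPKM, and ZNF382 was lower while the others were higher. Position along the chromosome and log2 fold change had a Spearman correlation of -0.02 over 197 entries, and number of fingers and log2 fold change -0.02 over 168.

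**Figure D4:**
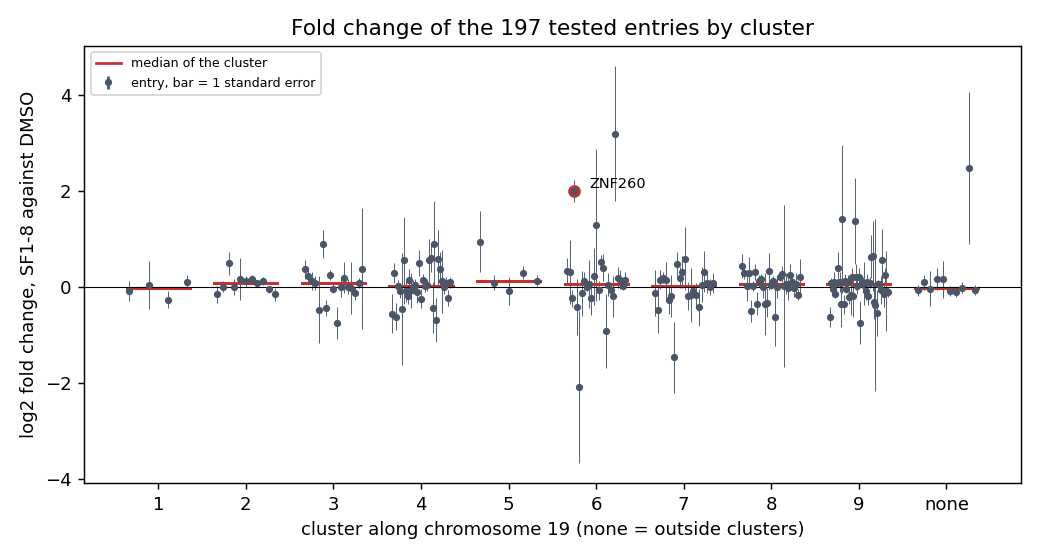
Log2 fold change of SF1-8 against DMSO for each tested entry (points) by cluster along chromosome 19, with 1 standard error as a thin line, a red bar at each cluster's median and ZNF260 ringed in red. The cluster medians lie between -0.03 and 0.13, and the points of every cluster fall on both sides of 0.

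With the zinc finger genes ZFP57 and ZNF445 included, the genes listed for the action of KRAB proteins were not called. Their mean levels ran from 0.0112 FPKM (ZFP57) to 100.1 FPKM (TRIM28), with 19 of 29 at 5 FPKM or more and 2 under 1 FPKM, and 9 of the 29 stood in entries that also name other genes. Of the 29 co-repressor genes found, 28 were tested and none had an unadjusted p under 0.05, with 5 lower and 23 higher by the fit and a median log2 fold change of 0.05. By the same fit 55.7% of protein-coding entries were higher, with a median of 0.02. Of those at 5 FPKM or more 66.2% were higher, with a median of 0.04. TRIM28, the scaffold that KRAB domains bind, stood at 98.9 and 101 FPKM with DMSO and at 101 and 98.7 FPKM with SF1-8. SETDB1, the methyltransferase, stood at 5.20 and 5.96 FPKM with DMSO and at 6.07 and 6.11 FPKM with SF1-8. ATF7IP, the partner that stabilizes SETDB1, had the smallest p and stood at 3.98 and 4.48 FPKM with DMSO and at 5.06 and 4.98 FPKM with SF1-8. Its log2 fold change was 0.27 with an adjusted p of 0.970 (edgeR quasi-likelihood, Benjamini-Hochberg). The next smallest p-values were those of the HP1 protein CBX1 (log2 fold change 0.16), the HUSH partner MORC2 (-0.22), the DNA methyltransferase DNMT3A (0.40) and MORC3 (0.13), whose entry also names CHAF1B.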

How the data were processed

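RNA-seq of 2 DMSO and 2 SF1-8 libraries was analysed, grouped by the sample labels. The authors deposited 1 table with an estimated count and an FPKM value per entry and library. The submitters' processing notes name cutadapt, FastQC, Bowtie2, HISAT2, StringTie and hg38, without roles or versions. The deposited FPKM values are scaled by the authors for length and depth, with 0.0001 in place of 0. The deposited estimated counts are unscaled and whole, and 4 occurs more often than any other count above 0, so that they may not be single reads. The edgeR and DESeq2 tests and the simulation nevertheless took them as counts of reads. Their p-values and standard errors rest on that reading, and no separate counting error was computed. Where a symbol stood in several entries, that with the highest mean count was kept. Entries were assembled, and 54 of the zinc finger entries name several genes. The 2095 entries naming no gene held 0.372% of the counts and were left out. The authors' methods state no test.

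Counts were scaled by TMM and filtered by filterByExpr, and SF1-8 was compared with DMSO by edgeR's quasi-likelihood test (edgeR 4.0.16, R 4.3.3) with Benjamini-Hochberg adjustment over all entries. Alternatives were DESeq2 1.42.0, no filter, total count scaling, limma 3.58.1 on log2(FPKM + 1) or log2(FPKM + 0.1), quantile normalization, FPKM of at least 1, entries naming 1 gene, a 2 Mb cluster gap, the replicate block and leaving out each library. On simulated counts for 26167 genes with 200 changed 4-fold, the SF1-8 against DMSO design recovered 55.5% with edgeR, with 5.93% of calls false, and 53% with DESeq2, with 10.9% false. Fingers and KRAB matches (first 80 residues of ZNF91, phmmer of HMMER 3.4, E-value under 1e-05) were found in translated GENCODE version 29 transcripts.

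The members and lists were chosen with earlier results of these data known. Named were the 12 entries with the smallest p, the 8 highest levels, the 5 largest changes each way at 1 FPKM or more, members with a textbook role, the highest and lowest entry of each cluster and the 5 co-repressor genes with the smallest p. ZNF566, ZNF529 and ZNF850 were named after their values were seen.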

Additional observations from a re-analysis of the deposited data

How the results depend on the processing

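No setting except DESeq2 and no filter on low counts called a zinc finger entry, and each of those called 1, ZNF260, which is also the count for the named genes. Without the filter, 1 co-repressor gene, ATF7IP, had an unadjusted p under 0.05. The 4 entries at an unadjusted p under 0.05 became 2 in limma with either pseudocount, with quantile normalization or with FPKM of at least 1, beside 4.7% to 5.72% of all entries. The median log2 fold change of the entries was -0.0020 by total count scaling (all entries -0.058) and 0.0065 in limma with a pseudocount of 1. The span between the highest and lowest cluster median (0.16) became 0.085 in limma with a pseudocount of 1, 0.068 with quantile normalization and 0.23 in entries naming 1 gene. With each library left out in turn, 0 entries and 0 named genes were called, 11 to 16 entries had an unadjusted p under 0.05 (5.5% to 8.08%, beside 3.58% to 7.96% of all entries in the same fits), the median log2 fold change ran from 0.017 to 0.082, the cluster span from 0.21 to 0.35, and 1 to 3 co-repressor genes had an unadjusted p under 0.05 (DAXX without DMSO 1, HDAC1, SETDB1 and ATF7IP without DMSO 2, DNMT3A without SF1-8 1 and MORC2 without SF1-8 2). The lone library of a group was then assumed to vary like the other group.

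With the replicate number as a block, 7 entries (3.55%) had an unadjusted p under 0.05, beside 3.71% of all entries, and none was called. The labels give a shared number and no pairing, and deviations of same-numbered libraries correlated at 0.02 over all entries and -0.19 over the zinc finger entries.

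Of 49 genes followed, 33 kept their sign in every setting. With 1 library left out in turn, the log2 fold change ran across 0 for 16 genes, and the library whose loss reversed it is named with each range. It ran from -1.05 to 0.20 for ZNF101, -0.39 to 0.028 for the ZNF586, ZNF587B and ZNF587 entry (both DMSO 1), -0.15 to 0.0031 for ZNF93 and -0.13 to 0.65 for ZNF331 (both DMSO 2). It ran from -1.91 to 0.035 for ZNF600, -1.44 to 0.0094 for ZNF329, -0.019 to 0.19 for the ZNF552, ZNF814 and ZNF417 entry and -0.40 to 0.81 for the ZNF808 and ZNF701 entry (all SF1-8 1). It ran from -1.44 to 0.10 for ZNF428, -0.17 to 0.039 for ZNF473, -0.052 to 0.67 for ZNF224 and -0.20 to 0.0078 for ZNF154 (all SF1-8 2). For 4 genes more than 1 library did so. ZNF146 ran from -0.36 (without DMSO 2) to 1.59, and was -0.25 without SF1-8 2. ZNF91 ran from -0.73 (without SF1-8 1) to 1.09, and was -0.46 without DMSO 2. ZNF491 ran from -1.32 to 0.39 (without DMSO 1), and was 0.06 without SF1-8 1. ZNF714 ran from -0.12 (without SF1-8 2) to 0.19, and was -0.03 without DMSO 1. With quantile normalization it was 0.021 for ZNF93 and 0.035 for ZNF154, and by total count scaling -0.0042 for ZNF714. The causes were not tested. Dividing the counts by 4, an alternative chosen after seeing the data, called none. With 2 libraries a group and levels near 1 FPKM, changes under 2-fold in single entries could often not be told from the spread between libraries.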
